A study of Mus musculus with 30 samples.

Results

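The genes described here encode actins, tubulins and the motor proteins that run on them. The group was chosen by gene symbol, with earlier results of these data known. They number 87 of the 7151 genes named by a single symbol on the array, and 128 of its 16896 cDNA probes carry them. Actins and actin-binding proteins make up 21 of the genes, tropomyosins and myosins 17, tubulins 7, kinesins 23, dynein and dynactin subunits 14, and the linkers and regulators Macf1, Marcks, Marcksl1, Stmn1 and Stmn3 the other 5. Of the 87 genes, 29 had more than 1 probe, and a gene's value is the mean of its probes. A further 7 probes carry a matching symbol beside another one and were left out.

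RNA was taken from the hippocampus and cerebral cortex of mice 12 weeks old, which lack or carry cyclo-oxygenase (COX)-1 or COX-2, the enzymes that turn arachidonic acid into prostaglandins. In both regions the groups were COX-1 null and COX-1 wild-type mice, and COX-2 null, COX-2 heterozygous and COX-2 wild-type mice, with 3 arrays in each of the 10 groups and 30 arrays in all. Both lines share a mixed genetic background and were bred apart. Null mice came from null fathers and heterozygous mothers and wild-type mice from wild-type parents, so the 2 were not littermates. How the heterozygous mice were bred is not given in the sources used here. The methods name both 3 mice per group and triplicate arrays, so p-values here reflect the spread between arrays only, and that spread may be technical. The deleted genes themselves were not analysed here.

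Actin filaments shape dendritic spines and synapses, are nucleated as branches by the Arp2/3 complex, and are pulled by myosins. Microtubules, polymers of alpha and beta tubulin, are the tracks of axons and dendrites. Kinesins carry cargo mostly towards their plus ends, dynein with its activator dynactin carries cargo towards the minus ends, and stathmins bind free tubulin and favour disassembly.

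RNA was reverse transcribed to radioactively labelled cDNA and hybridised to nylon arrays of cDNA probes. The values are Z scores, defined in the methods as the natural log intensity of a probe minus the mean of its array, divided by the SD of that array. The scores used here have mean 0 and SD 1 within each of 2 parts of an array, its first and second 8448 probes. A difference of 1 is therefore 1 SD of such a part and is not a fold change. Levels of different genes are not compared, since cDNA probes differ in length and hybridisation. Signals of near-identical actin or tubulin copies may be shared between probes, which was not tested. Array medians lay between -0.0721 and -0.0419, and arrays of a group correlated with r of 0.984 to 0.993 over the second 8448 probes. In the first 8448 rows of the table, 5 of the 6 arrays of COX-1 cortex carry the same copied values (COX-1 null replicate 3 is the exception). Comparisons with COX-1 cortex therefore rest on the second 8448 probes, which cover 48 of the 87 genes. Markers of cortical neurons (2 of 14 on the array) and of hippocampal neurons (4 of 14) all had a mean Z below 0, so the dissection could not be checked with them.

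Genes whose mean Z in the arrays of a comparison exceeded 0 counted as above background. Over the 24 arrays that hold values of their own throughout, 54 of the 87 genes (62.1%) were above background, against 47.6% of all 14384 features, which are gene means and unnamed probes. Genes were called in 2 ways. The z-ratio rule, adapted from the study's methods, asks for a mean Z above 0, a Z test P under 0.05 and a z ratio beyond 1.5, where the z ratio scales a gene's difference in mean Z by the SD that the differences of all features have. This divisor departs from the formula written in the methods, which takes the SD of all genes on an array. For Z scores that SD is 1, and with it 0 features would pass in any of the 6 genotype comparisons, in which the differences of these genes lay between -0.273 and 0.241. The paper nonetheless lists genes of null mice with z ratios beyond 1.5, and the divisor used here follows the form of those listed values. The second way is limma's adjusted p under 0.05 over all features above background. The 10 genes with the highest mean Z, which depends on the probe as well as on the RNA, were the dynactin subunits Dctn2 (2.43) and Dctn5 (2.31), Arpc5 (1.69) of the Arp2/3 complex, the kinesin light chain Klc1 (1.63), Actb (1.60), Myo1c (1.54), the tubulins Tubb6 (1.47) and Tubb5 (1.31), the dynein light chain Dynll1 (1.37) and Actg1 (1.22). The 87 means lay between -2.32 and 2.43, with a median of 0.177 beside -0.0519 over all features.

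Hippocampus and cortex differed in 10 of the 54 genes above background in the COX-2 line, taking the mean difference over null, heterozygous and wild-type mice (limma, 9 arrays against 9). The same test called 12.9% of the 6845 features above background, 6.37% higher and 6.56% lower. Leaving out 1 of the 18 arrays gave 7 to 10 calls among the genes, so their count was not read as an excess over that share. Of the 14 actin and actin-binding genes above background, 12 had the higher mean in hippocampus and 3 of them passed the test (Acta2, Arpc2 and Actb), and no gene of this group was called lower. The median difference over these 14 genes was 0.0514 in Z, beside 0.0170 over all 54 genes and 0.00514 over all features tested. Of the 10 tropomyosin and myosin genes 1 was called higher and 1 lower, of the 6 tubulins 1 higher, of the 11 kinesins 1 higher and 1 lower, of the 9 dynein and dynactin subunits 1 lower and of the 4 linkers and regulators 1 lower.

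Arpc2, a subunit of the Arp2/3 complex, ranged over 0.347, 0.372 and 0.495 in hippocampus (lowest, median and highest of 9 arrays), against 0.127, 0.249 and 0.269 in cortex. All 9 hippocampus arrays lay above the highest cortex array, and the difference was 0.156 ± 0.0227 (SE, adjusted p = 0.000228). Beta actin, Actb, which forms filaments in nearly all cells, ranged over 1.60, 1.64 and 1.72 in hippocampus, against 1.47, 1.54 and 1.55 in cortex, again without overlap (0.128 ± 0.0220, adjusted p = 0.00094). Each of its 7 probes was higher in hippocampus, by 0.0351 to 0.327, and 3 of them were called on their own. The smooth muscle actin Acta2, found in the brain mainly in the walls of arterioles, ranged over 0.342, 0.392 and 0.547 in hippocampus, against 0.193, 0.258 and 0.369 in cortex (0.171 ± 0.0252, adjusted p = 0.000245). Of the 9 hippocampus arrays, 7 lay above all cortex arrays. Myl12b, a regulatory light chain of nonmuscle myosin, was higher by 0.0755 ± 0.0244 (adjusted p = 0.0466), and the call was lost without any one of 12 of the 18 arrays and under quantile normalization. Neither of its 2 probes was called on its own.

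Among microtubule genes, the beta tubulin Tubb2b ranged over 0.961, 1.06 and 1.21 in hippocampus, against 0.820, 0.959 and 1.08 in cortex (0.126 ± 0.0314, adjusted p = 0.0131). The ranges overlapped, with 4 hippocampus arrays above all cortex arrays, and the call held without any 1 of the 18 arrays. Kif22, a chromosome-bound kinesin of dividing cells, was higher by 0.0906 ± 0.0276 (adjusted p = 0.0357), and the call was lost without any one of 11 of the 18 arrays. Its 9 hippocampus arrays spread over 0.444, 0.626 and 0.736, against 0.452, 0.505 and 0.557 in cortex, with 6 above and 1 below all cortex arrays.

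The 4 genes lower in hippocampus were Stmn1, Kif3a, Myo1e and Dctn5. Stathmin 1, Stmn1, which binds free tubulin dimers, ranged over 0.617, 0.687 and 0.764 in hippocampus, against 0.797, 0.871 and 0.907 in cortex, with no overlap (-0.168 ± 0.0247, adjusted p = 0.000232). Kif3a, a motor subunit of the heterotrimeric kinesin-2 of cilia and axons, fell by 0.141 ± 0.0244 (adjusted p = 0.00094), and 8 of its 9 hippocampus arrays lay below all cortex arrays. Only 1 of its 3 probes carried this difference, at 1.34, 1.45 and 1.66 in hippocampus, against 1.83, 1.90 and 1.97 in cortex. The other two probes differed by 0.0259 and -0.0185. Myo1e, a class I myosin that links membranes to actin, was at 0.144, 0.212 and 0.299 in hippocampus, against 0.290, 0.396 and 0.623 in cortex (-0.187 ± 0.0361, adjusted p = 0.00242), with 8 of 9 hippocampus arrays below all cortex arrays. Neither of its 2 probes was called on its own. The probe above background differed by -0.0654 ± 0.0319 (adjusted p = 0.189), and the larger part of the gene's difference came from the probe below background (-0.310). Dctn5, a dynactin subunit, was lower by 0.125 ± 0.0405 (adjusted p = 0.0475), and the call was lost without any one of 14 of the 18 arrays.

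**Figure D1:**
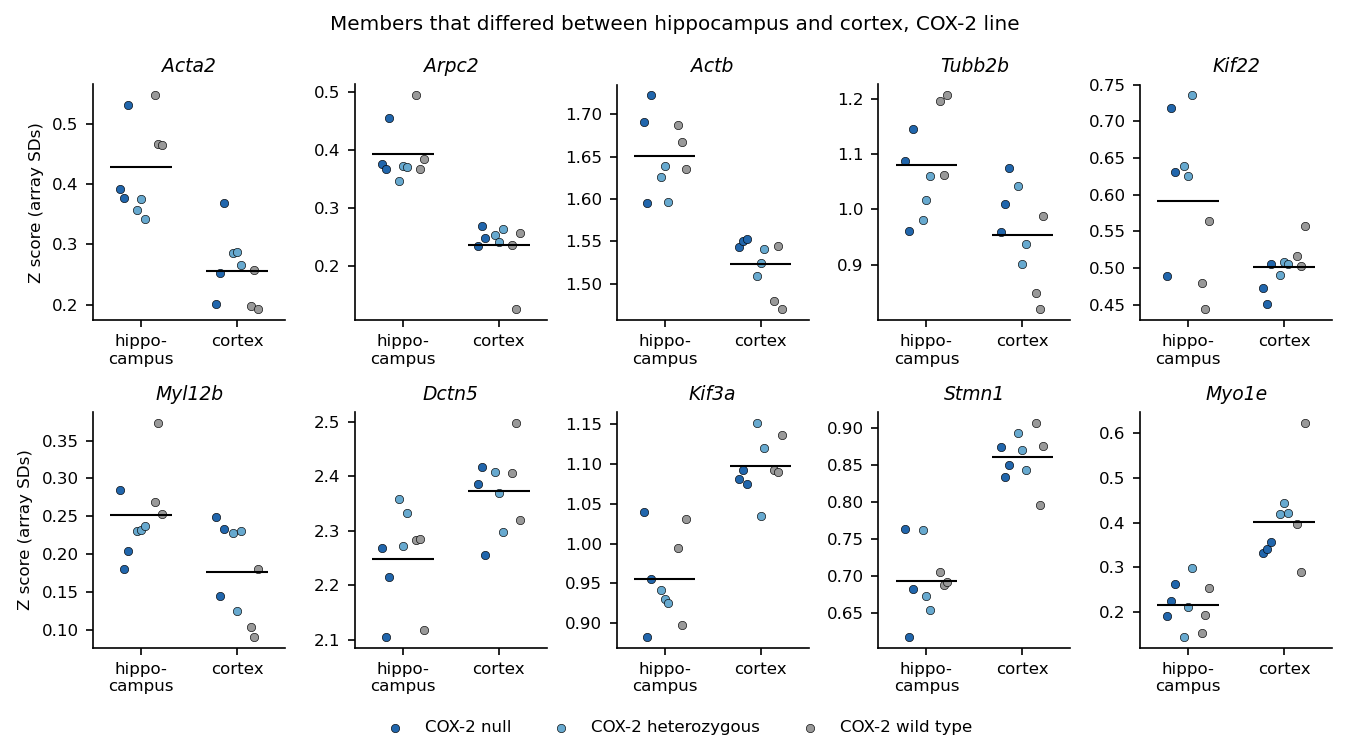
Z scores of the 10 actin, tubulin and motor protein genes that limma called between hippocampus (left) and cortex (right) of the COX-2 line, 1 point an array, coloured by genotype, with a line at the mean of 9 arrays. The hippocampus and cortex points of Arpc2, Actb and Stmn1 do not overlap, and the axes of the panels differ and do not start at 0.

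Several well-known cytoskeletal genes gave no call between the regions in the COX-2 line. Gamma actin Actg1 differed by 0.0381 ± 0.0183, the actin-severing cofilin Cfl1 by 0.0657 ± 0.0298, and Tpm1, a tropomyosin, by 0.0100 ± 0.0327. The conventional kinesin heavy chain Kif5b differed by -0.0158 ± 0.0264, the dynein light chain Dynll1 by 0.0190 ± 0.0221, and Marcks, which couples membranes to actin, by 0.0264 ± 0.0197. Dctn1, the large dynactin subunit, was below background. So was the mean of Macf1, which crosslinks actin and microtubules, although 1 of its 2 probes was above background and differed by -0.0653 ± 0.0329 (adjusted p = 0.204). Other cytoskeletal genes were taken from lists of 36 microtubule-associated, 82 actin-regulating, 15 intermediate filament and 20 septin genes, of which 23, 51, 7 and 7 were on the array. Of the 45 genes of these lists above background, 4 were called higher in hippocampus and 1 lower, against 12.9% of all features. Higher were the actin-sequestering thymosin Tmsb4x (0.137 ± 0.0280) and the tubulin folding cofactors Tbca (0.0774 ± 0.0230) and Tbcb (0.0815 ± 0.0251). The microtubule polymerase Ckap5 was also called higher (0.129 ± 0.0423). Ckap5 passed the limit on mean Z (0.0149) only through hippocampus, since its cortex mean was below 0, and its values are a description. Called lower was drebrin, Dbn1, an actin-binding protein of dendritic spines (-0.0801 ± 0.0262). The 5 intermediate filament genes and the 1 septin gene above background gave no call.

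Levels of markers of other cells stood as follows in the COX-2 line. Of the choroid plexus list 2 of 7 genes were on the array, Ttr and Otx2, and Otx2 was below background. Ttr ranged over 0.246, 1.90 and 2.36 in hippocampus, against 0.170, 0.223 and 1.59 in cortex, with overlap and no call by limma. The summed Z of this list lay between 0.105 and 1.93 in COX-2 null, -0.209 and 1.43 in heterozygous and 0.0860 and 2.12 in wild-type hippocampus, against -0.120 to 0.154, -0.0751 to 1.56 and -0.0687 to 0.156 in the cortex of the same genotypes. Of the 12 endothelial and mural markers 4 were on the array and 3 above background, none of them called, with a summed Z of 3.61 to 3.74 in COX-2 null, 3.66 to 3.83 in heterozygous and 3.75 to 4.08 in wild-type hippocampus, against 3.53 to 4.25, 3.13 to 3.29 and 3.63 to 3.81 in the cortex of the same genotypes. The mural marker Cnn1 ranged over 1.83, 2.0 and 2.08 in hippocampus, against 1.78, 1.96 and 2.07 in cortex. Of the 8 astrocyte markers 4 were on the array and 3 above background (Aldoc, Glul and Gja1, with Slc1a3 below it). The astrocyte enzyme Aldoc alone was called, higher in hippocampus by 0.145 ± 0.0332 (adjusted p = 0.00777), while the medians were 0.149 in hippocampus and 0.225 in cortex for Glul, and 0.946 in hippocampus and 0.959 in cortex for Gja1. The summed Z of the astrocyte list was 2.38 to 2.63 in COX-2 null, 2.14 to 2.34 in heterozygous and 2.28 to 2.54 in wild-type hippocampus, against 2.29 to 2.34, 1.91 to 2.45 and 2.22 to 2.40 in the cortex of the same genotypes. The part of these cells in the regional differences was not tested, and in whole tissue a change in the share of a cell type and a change of RNA per cell cannot be told apart.

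The promoters of 69 of the 87 genes were in RefSeq's table for GRCm38.p6 (250 bases before the start of transcription that the table lists), and 3 are shown for genes that differed between regions or, for Stmn3, between genotypes. Capitals mark the CArG box, to which serum response factor binds in many actin genes, and the GC box GGGCGG, on both strands. Where 2 GC boxes overlap, the capitals run through both.
Actg1 (chr11:120348496-120348745, minus strand): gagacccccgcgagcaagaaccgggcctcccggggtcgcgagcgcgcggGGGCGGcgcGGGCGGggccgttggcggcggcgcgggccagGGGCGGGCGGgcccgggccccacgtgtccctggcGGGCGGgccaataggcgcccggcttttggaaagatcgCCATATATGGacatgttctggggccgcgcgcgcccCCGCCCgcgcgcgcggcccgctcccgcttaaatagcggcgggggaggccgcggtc
Arpc2 (chr1:74236267-74236516, plus strand): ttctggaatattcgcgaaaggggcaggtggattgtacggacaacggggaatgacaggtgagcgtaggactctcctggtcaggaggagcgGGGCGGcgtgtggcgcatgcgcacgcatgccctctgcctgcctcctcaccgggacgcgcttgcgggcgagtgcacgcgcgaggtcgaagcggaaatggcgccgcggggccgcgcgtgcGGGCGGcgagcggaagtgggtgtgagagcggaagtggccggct
Stmn3 (chr2:181314501-181314750, minus strand): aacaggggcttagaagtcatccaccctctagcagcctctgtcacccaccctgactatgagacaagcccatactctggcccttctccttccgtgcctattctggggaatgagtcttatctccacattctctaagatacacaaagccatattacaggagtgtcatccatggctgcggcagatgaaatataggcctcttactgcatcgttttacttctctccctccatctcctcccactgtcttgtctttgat
A CArG box stood in 5 of the 81 promoters of the 69 genes (those of Actg1, Arpc4, Myl6, Myl9 and Myo1e) and in 1.47% of all 32851 promoters of the table. The Actg1 box lies 80 bases before the listed start, beside 6 GC boxes. Arpc2 had 2 GC boxes and Stmn3 had none of these motifs. The listed start can lie inside the annotated gene, and 27 bases of the Arpc2 stretch do so, as do 212 of the 250 bases listed for Acta2, whose stretch is therefore not shown. GC boxes stood in 53 of the 81 promoters of these genes and in 32.7% of all promoters, and the TATA box TATAAA in 5 of the 81 and in 12.4% of all. These matches describe letters only.

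Within single COX-2 genotypes the count of genes called between hippocampus and cortex was 0 of 54 in null mice, 5 of 55 in heterozygous mice (1 higher, 4 lower) and 8 of 53 in wild-type mice (6 higher, 2 lower). Of all features above background the same tests called 0.701% in null, 13.1% in heterozygous (6.7% higher, 6.39% lower) and 4.82% in wild-type mice (2.72% higher, 2.1% lower). In null mice 12 of the genes and 15.9% of features had an unadjusted p under 0.05. The genes of wild-type mice were Acta2, Arpc2, Tubb2b, Actb, Myl12b and the beta tubulin Tubb6, all higher in hippocampus, and Stmn1 and Myo1e, both lower. Those of heterozygous mice were Kif22, higher, and Stmn1, Kif3a, Myo1e and Kif5b, lower. In a test of the difference itself, none of 53 genes was called for a COX-2 null effect that differed between the regions, against 117 of 6844 features (1.71%), and 11 of the genes and 20.6% of features had an unadjusted p under 0.05.

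In the COX-1 line the second part of the table gave 7 genes of 30 called in null mice (4 higher in hippocampus, 3 lower) and 9 of 30 in wild-type mice (6 higher, 3 lower). Of these, 2 of the 7 (Kif9 and Tpm2) and 1 of the 9 (Arpc1a) passed the limit on mean Z only through the region where they were high, since their mean in the other region was below 0. Their values are a description, and 5 and 8 calls had both regions above 0. The background of these tests was high, at 25.6% of features in null mice (10.3% higher, 15.3% lower) and 29.2% in wild-type mice (14.1% higher, 15.1% lower). Acta2 was at 0.556, 0.526 and 0.560 in COX-1 null hippocampus, against 0.174, 0.204 and 0.151 in COX-1 null cortex (0.371 ± 0.0489, adjusted p = 1.7e-05). In COX-1 wild-type mice it was at 0.429, 0.482 and 0.473 in hippocampus, against 0.18, 0.303 and 0.0558 in cortex (0.282 ± 0.0489, adjusted p = 0.000181). Acta2 thus had the higher mean in hippocampus in all 5 genotypes, without overlap of the arrays in any of them. Actg1 was at 1.25, 1.21 and 1.27 in COX-1 null hippocampus, against 1.12, 1.10 and 1.14 in cortex (0.126 ± 0.0282, adjusted p = 0.00201). In wild-type mice of this line it was at 1.26, 1.28 and 1.29 in hippocampus, against 1.08, 1.07 and 1.06 in cortex (0.209 ± 0.0282, adjusted p = 1.86e-05).

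Tpm2, a tropomyosin of smooth and skeletal muscle, differed by 0.380 ± 0.0644 in COX-1 null mice and 0.340 ± 0.0644 in COX-1 wild-type mice by its probe in the second part (adjusted p = 0.000158 and 0.000401). In COX-1 null mice its means were 0.256 in hippocampus and -0.124 in cortex. The same probe differed by -0.0845 in COX-2 null, -0.303 in heterozygous and 0.130 in COX-2 wild-type mice. Its wild-type arrays of the COX-1 line were at 0.400, 0.363 and 0.451 in hippocampus, against 0.0929, 0.0612 and 0.0390 in cortex. Stmn1 was lower in hippocampus in COX-1 null mice (-0.155 ± 0.0462, adjusted p = 0.0151) and differed by 0.0245 in COX-1 wild-type mice, whose arrays overlapped. Other calls in COX-1 null mice were the dynein intermediate chain Dync1i2, higher (0.121 ± 0.0424), and Kif9, a kinesin of cilia and sperm tails, and the nonmuscle myosin heavy chain Myh10, both lower (-0.277 ± 0.0365 and -0.224 ± 0.0427). The means of Kif9 were -0.114 in hippocampus and 0.163 in cortex. In COX-1 wild-type mice Tubb5 (0.321 ± 0.0548), the Arp2/3 subunit Arpc1a (0.146 ± 0.0473) and Kif3b, the partner motor of Kif3a (0.0971 ± 0.0350), were higher in hippocampus, with Arpc1a means of 0.0814 in hippocampus and -0.0646 in cortex. The Tubb5 value is that of its 1 probe in the second part, and its other 2 probes were lower in hippocampus in the COX-2 line. Its SD was 0.153 in COX-1 wild-type cortex and 0.0219 in hippocampus. Marcks (-0.151 ± 0.0331), Kif22 (-0.187 ± 0.0440) and Dync1i2 (-0.114 ± 0.0424) were lower in hippocampus in COX-1 wild-type mice. Of the 2 Marcks probes in the second part, 1 carried most of the difference, at -0.274 beside -0.0289. Neither Dync1i2 probe was called on its own by limma (adjusted p = 0.0694 and 0.132), and the arrays of Dync1i2 overlapped.

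**Figure D2:**
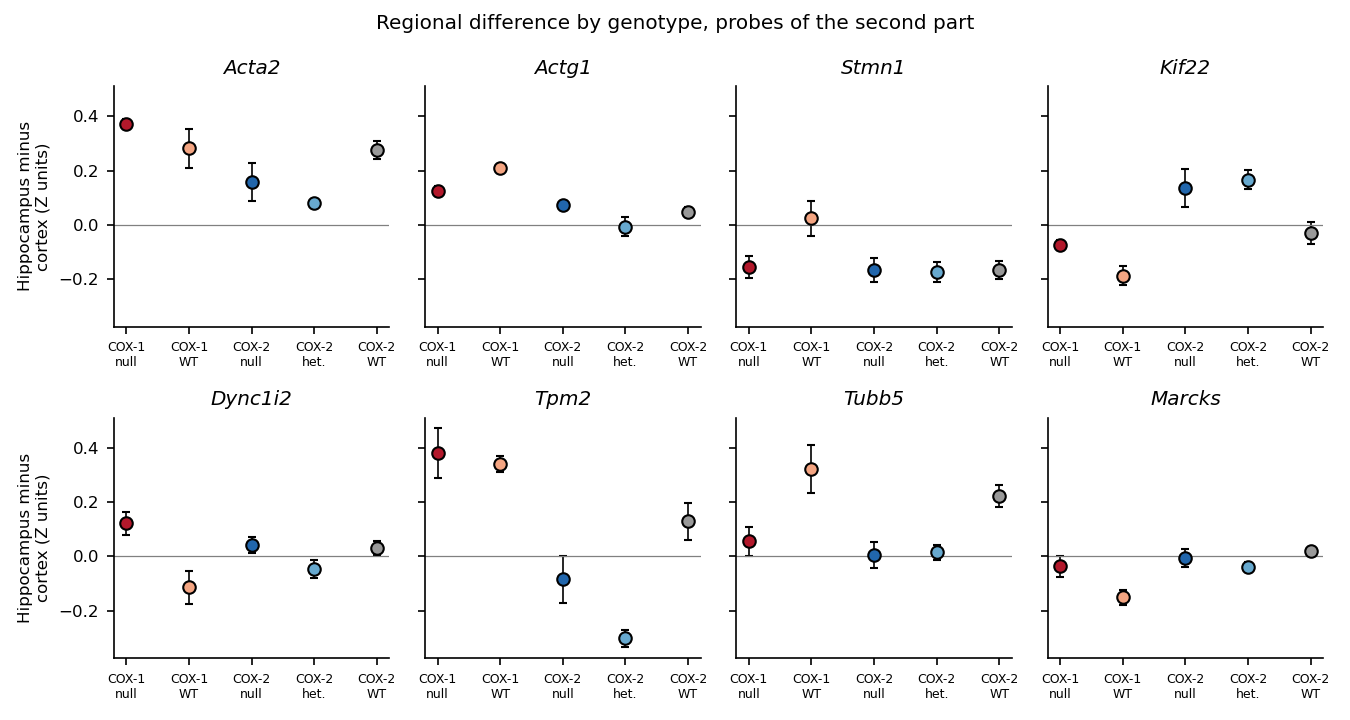
Hippocampus minus cortex in Z units for 8 genes in the 5 genotypes, from probes of the second part of the table, with the SE of the difference as bars (3 arrays each). Acta2 lies above 0 in every genotype, Stmn1 lies below 0 in all but COX-1 wild-type mice, and Kif22 and Tpm2 lie on both sides.

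Probes of one gene did not always share a direction. Of the 29 genes with more than 1 probe, 15 had all probes on one side in the regional comparison of the COX-2 line and 14 had probes on both sides. These counts include probes at or below background and differences near 0, such as -0.00290 and 0.0194 for Dync1i2. In no gene were probes called in opposite directions. The beta tubulin Tubb5 had 1 probe higher in hippocampus (0.0810 ± 0.0266, adjusted p = 0.050) and a pair lower (-0.0728 and -0.0687, neither called). The Arp2/3 subunit Arpc5 had 1 probe at -0.0907 ± 0.0288 (adjusted p = 0.0431) and the other at 0.137 ± 0.0457 (adjusted p = 0.0540).

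**Figure D3:**
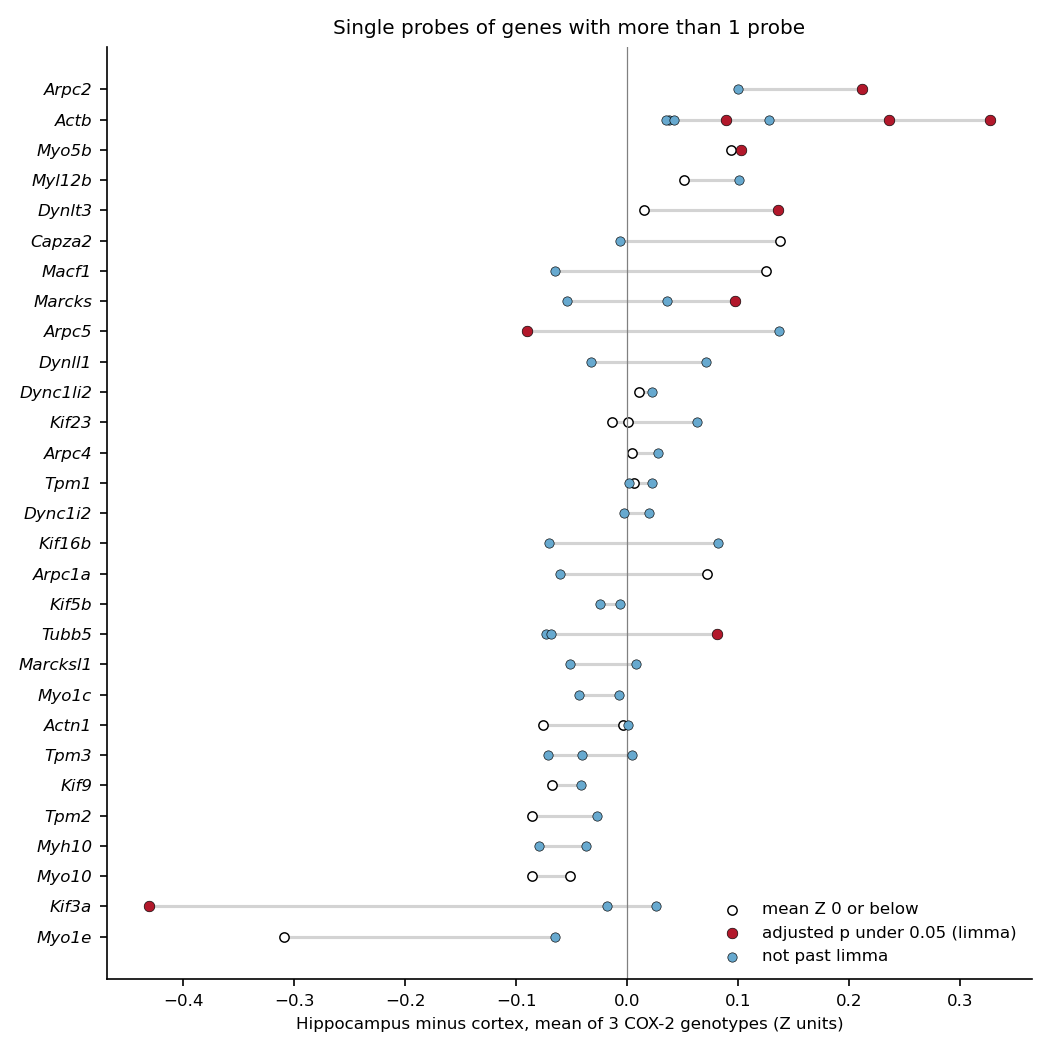
Hippocampus minus cortex (mean of the 3 COX-2 genotypes, Z units) for each probe of the 29 genes with more than 1 probe, with genes ordered by the mean of their probes. Filled red points passed limma, blue points did not and open points were at or below background. The 7 probes of Actb all lie above 0, while 1 probe of Kif3a at -0.431 lies far from its other two.

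Loss of a COX gene gave few calls among these genes, and the counts are given beside the share of all features called in the same comparison. In COX-1 null cortex 29 of the 48 genes were above background, and 1 was called by the z-ratio rule, against 2.63% of 3766 features. That gene was Tubb5, a beta tubulin of the developing and adult brain, whose probe in the second part was at 0.463, 0.547 and 0.505 in COX-1 null cortex, against 0.334, 0.459 and 0.155 in wild-type cortex. The arrays did not overlap, the means were 0.505 ± 0.0417 and 0.316 ± 0.153 (SD, n = 3 each) and the z ratio was 1.71. The call was lost without any one of 4 of the 6 arrays and under quantile normalization. By limma its adjusted p was 0.182, and 0 of 3766 features passed, with 574 at an unadjusted p under 0.05 (15.2%), among them 6 of the 29 genes. Kif2a, a kinesin that depolymerises microtubules, was at 0.460, 0.448 and 0.355 in null, against 0.593, 0.566 and 0.560 in wild-type cortex, with a z ratio of -1.38, short of the threshold. Other z ratios at the ends were 1.08 for Kif1c, 1.07 for Kif3a, -0.808 for Marcks and -0.656 for Dync1i2. The 2 groups did not overlap in 8 of the 29 genes, against 19.3% of all features, and the median difference was 0.0419 over the 29 genes and 0.00833 over all.

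COX-2 null and COX-2 heterozygous cortex had no call among these genes by either rule. The z-ratio rule called 4% of 6843 features in null and 3.17% of 6849 in heterozygous cortex, and limma 0 in both, with 729 (10.7%) and 607 (8.86%) features at an unadjusted p under 0.05. At that level stood 3 of the 53 genes above background in null cortex and 4 of the 52 in heterozygous cortex. In null cortex the z ratios at the ends were 1.49 for Stmn3, 1.29 for Tubb2b and 1.11 for the dynein light chain Dynlt3, and -1.43 for the dynein light intermediate chain Dync1li1, -1.25 for Kif7 and -0.933 for Myo1e. Stmn3 was at 0.108, 0.134 and 0.335 in null, against 0.127, 0.0247 and -0.0235 in wild-type cortex, and the arrays overlapped. In heterozygous cortex they were 1.19 for the alpha tubulin Tuba1b, 1.17 for the mitochondrial myosin Myo19 and 1.01 for Tpm2, and -1.49 for Klc1, -1.14 for Dync1li1 and -0.872 for Kif16b. Klc1, a kinesin light chain that binds cargo, had means of 1.5 ± 0.0349 in heterozygous and 1.66 ± 0.0419 in wild-type cortex (SD, n = 3 each) without overlap, and an adjusted p of 0.497 by limma. Arrays of the 2 groups did not overlap in 8 and 6 of the genes in null and heterozygous cortex, against 17.6% and 16.6% of features.

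In COX-1 null hippocampus the z-ratio rule called 3 of 53 genes, against 4.81% of 6876 features, and limma called none of them, against 26 features (0.378%). At an unadjusted p under 0.05 were 9 of the genes and 1137 features (16.5%). Myh9, the heavy chain of nonmuscle myosin IIA, was at 0.0769, -0.211 and 0.0445 in COX-1 null hippocampus, against 0.226, 0.316 and 0.189 in wild-type hippocampus. The arrays did not overlap, the z ratio was -2.44 and limma's adjusted p was 0.132. Its mean of -0.0297 in null hippocampus lay below 0, so the gene passed the limit on mean Z only through the wild-type arrays, and 2 of the 3 calls had both groups above 0. Kif7, a kinesin of the ciliary tip in Hedgehog signalling, was at 0.492, 0.464 and 0.427 in null, against 0.243, 0.324 and 0.0927 in wild-type hippocampus (z ratio 2.16, adjusted p = 0.0735). Without wild-type replicate 3, the lowest array, the z ratio was 1.46, under the threshold. Stmn3, a neuronal stathmin, was at 0.114, 0.232 and 0.20 in null, against -0.0142, -0.0134 and 0.0393 in wild-type hippocampus (z ratio 1.59, adjusted p = 0.125). These wild-type arrays lay on both sides of 0, so the control stood at the edge of background. The arrays of Stmn3 did not overlap, and its call by the z-ratio rule was lost without any one of 4 of the 6 arrays.

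Other z ratios at the ends in COX-1 null hippocampus were 1.45 for Dync1i2, -1.30 for Dctn5 and -1.20 for Tubb2a-ps2, annotated as a tubulin pseudogene. Dync1i2 was at 0.841, 0.843 and 0.720 in null, against 0.578, 0.667 and 0.671 in wild-type hippocampus (adjusted p = 0.0923). Of the 11 tropomyosin and myosin genes above background, 9 had the lower mean in null hippocampus, with a median of -0.0326 beside -0.0165 over the 53 genes and -0.000438 over all features, and Myh9 alone was called. With the 6 wild-type arrays of the COX-1 and COX-2 lines pooled as control, the z ratio was -1.0 for Myh9 and 0.431 for Stmn3, and neither was called, while Kif7 kept its call at 1.99. The arrays did not overlap in 15 of the 53 genes, against 21.8% of features.

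In COX-2 null hippocampus 1 of 53 genes was called by the z-ratio rule, against 3.75% of 6856 features, and limma called 0 features, with 837 of them (12.2%) and 3 of the genes at an unadjusted p under 0.05. The kinesin light chain Klc4 was at 0.12, 0.113 and -0.00238 in COX-2 null hippocampus, against 0.280, 0.325 and 0.215 in wild-type hippocampus. The arrays did not overlap, and the z ratio was -1.91 (adjusted p = 0.30 by limma). With the 6 wild-type arrays pooled as control it was -1.42, short of the threshold. Other z ratios at the ends were 1.13 for Kif22, 1.06 for the neuronal beta tubulin Tubb3, 0.920 for Kif7, -1.23 for Tubb6 and -1.13 for Klc1. The groups did not overlap in 6 of the genes, against 17.2% of features.

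COX-2 heterozygous hippocampus was the one genotype comparison in which limma called any of these genes, and it also had the highest background, with 162 of 6867 features called (2.36%) and 431 (6.28%) past the z-ratio rule. Stmn3 was at 0.114, 0.0236 and -0.0881 in heterozygous, against 0.238, 0.324 and 0.265 in wild-type hippocampus. The heterozygous arrays lay on both sides of 0, at the edge of background. Stmn3 was lower by 0.259 ± 0.0544 (adjusted p = 0.0300, z ratio -2.23), without overlap, and limma's call was lost on leaving out any 1 of the 6 arrays. With the 6 wild-type arrays pooled as control its z ratio was -0.936. Stmn3 thus had the higher mean in COX-1 null and the lower mean in COX-2 heterozygous hippocampus, each against its own wild type. The 2 wild-type groups themselves did not overlap, with COX-2 wild type the higher. In COX-2 null hippocampus, where the gene is lost in full, Stmn3 passed neither rule. Its mean Z over COX-2 null hippocampus and cortex was 0.191, and these regions differed by -0.00287.

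The second gene past the z-ratio rule there was Dynll2, a dynein light chain that also binds myosin V, at 0.267, 0.0926 and 0.0283 in heterozygous, against 0.372, 0.401 and 0.356 in wild-type hippocampus. The arrays did not overlap, the z ratio was -2.12 and the adjusted p 0.103, and the call was lost without heterozygous replicate 2. Kif22 had a z ratio of 1.47, at 0.640, 0.626 and 0.736 in heterozygous, against 0.480, 0.444 and 0.564 in wild-type hippocampus, and passed the threshold at 1.69 with the 6 wild-type arrays pooled as control. Acta2 was at 0.358, 0.374 and 0.342 in heterozygous, against 0.547, 0.466 and 0.464 in wild-type hippocampus, without overlap (z ratio -1.15, adjusted p = 0.113). Further z ratios at the ends were 0.966 for the class I myosin Myo1c, 0.836 for Kif7 and -1.17 for Tubb2b. All 6 tubulin genes above background had the lower mean in heterozygous hippocampus, with a median difference of -0.0745 beside 0.00421 over all features, and none passed either rule. The groups did not overlap in 19 of the 53 genes, against 33.3% of features, and 7 of the genes and 1287 features (18.7%) had an unadjusted p under 0.05.

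**Figure D4:**
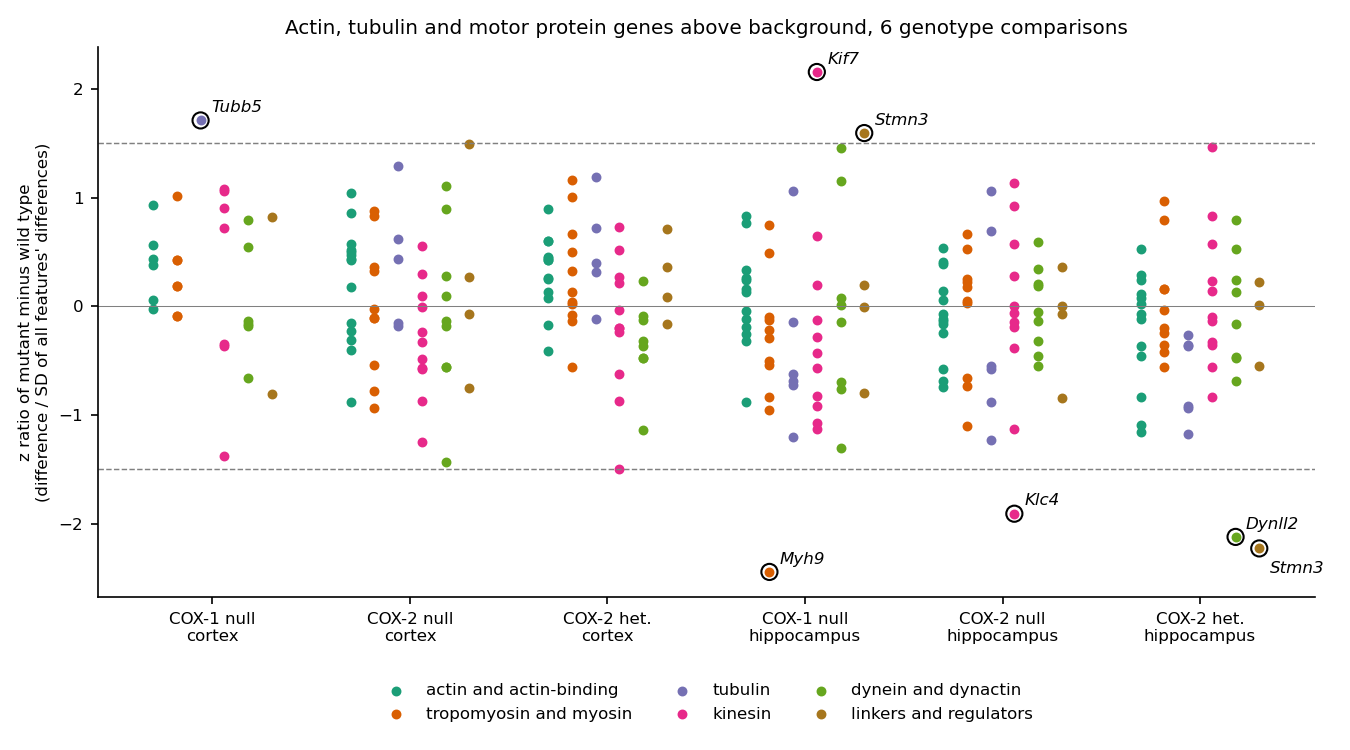
z ratios (mutant minus wild type, difference divided by the SD of all features' differences) of the actin, tubulin and motor protein genes above background in the 6 genotype comparisons, coloured by family. Dashed lines mark 1.5 and -1.5, and rings and names mark the 7 calls by the z-ratio rule, of which 6 are in hippocampus.

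**Figure D5:**
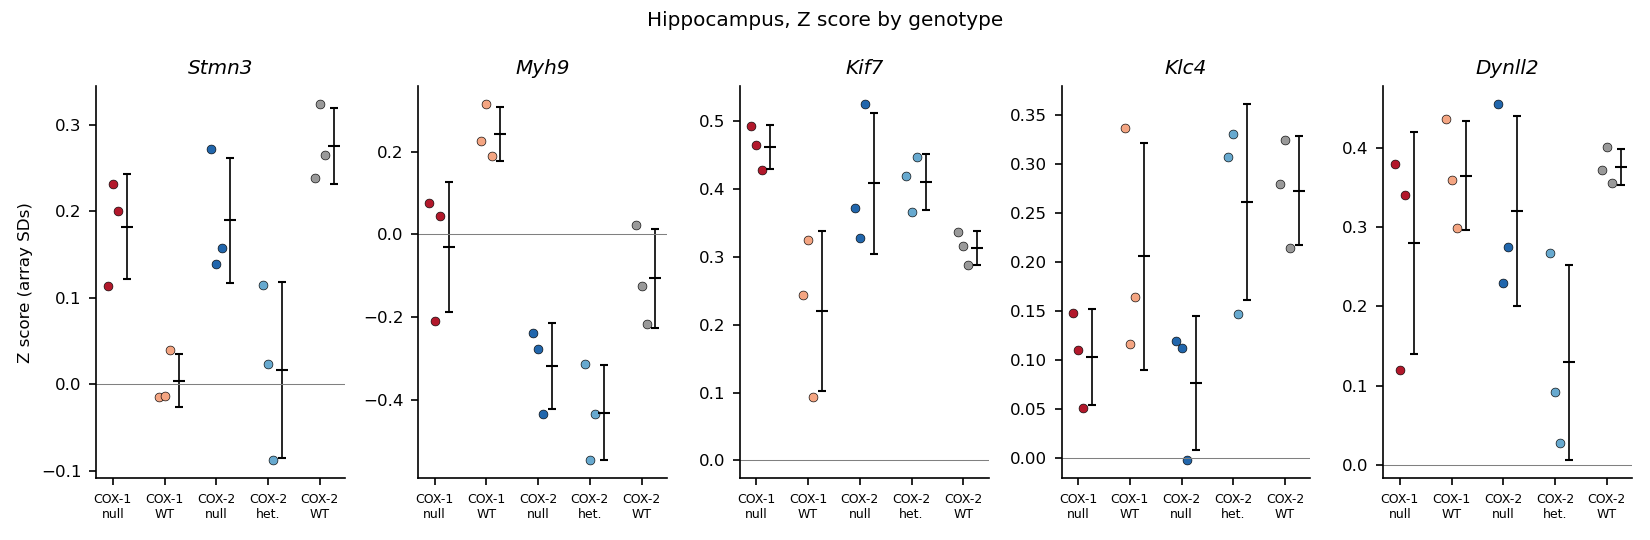
Z scores of Stmn3, Myh9, Kif7, Klc4 and Dynll2 in the 5 hippocampus groups, 1 point an array, with the mean and SD of 3 arrays beside them (the axes differ between panels). Stmn3 and Myh9 lie apart in the wild-type arrays of the 2 lines, without overlap.

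Of the other cytoskeletal lists together, the z-ratio rule called 2 of 31 genes above background in COX-1 null cortex, 1 of 46 in COX-2 null and 0 of 46 in COX-2 heterozygous cortex, and 0 of 47, 1 of 45 and 1 of 47 in COX-1 null, COX-2 null and COX-2 heterozygous hippocampus, to be read beside the shares of all features given above. In COX-1 null cortex they were Clasp1, which stabilises microtubule plus ends (z ratio 1.75), and Map1lc3a, a light chain of microtubule-associated proteins used in autophagy (z ratio -1.74). Ckap5 had a z ratio of 1.56 in COX-2 null cortex and of -1.5 in COX-2 null hippocampus, both at a level near background (mean Z of 0.00733 and 0.109). In cortex it passed the limit on mean Z only through the null group, at 0.0857 in null and -0.0711 in wild-type mice. Vinculin, Vcl, which ties actin to adhesion sites, had a z ratio of 1.91 in COX-2 heterozygous hippocampus. None of these passed limma, with adjusted p between 0.144 and 0.467.

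The 2 null effects were also set against each other within a region. None of the genes was called for a difference between the COX-2 and COX-1 null effects, among 29 in cortex and 53 in hippocampus, and none of 3773 and 6856 features passed limma, with 406 (10.8%) and 518 (7.56%) features and 3 of the genes in each region at an unadjusted p under 0.05. The 2 wild-type groups did differ in hippocampus. Of 55 genes, 6 were called between COX-2 and COX-1 wild-type hippocampus, 3 higher and 3 lower, against 5.7% of 6873 features (2.78% higher, 2.92% lower). Stmn3 (0.272 ± 0.0544, adjusted p = 0.0171), Dync1i2 (0.167 ± 0.0435, adjusted p = 0.0408) and the dynein heavy chain Dync1h1 (0.155 ± 0.0428, adjusted p = 0.0499) were higher in COX-2 wild-type mice. Myh9 (-0.350 ± 0.0854, adjusted p = 0.0328), Tpm2 (-0.305 ± 0.0620, adjusted p = 0.0173) and alpha-actinin Actn2 (-0.194 ± 0.0488, adjusted p = 0.0358) were lower. Of the 6, Myh9 and Actn2 passed the limit on mean Z only through COX-1 wild type, with means of -0.106 and -0.0904 in COX-2 wild type and 0.243 and 0.103 in COX-1 wild type. Their values are a description, and the gene means of the other 4 were above 0 in both groups.

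Myh9 was at 0.0217, -0.125 and -0.216 in COX-2 wild-type hippocampus, against 0.226, 0.316 and 0.189 in COX-1 wild-type hippocampus, and its 6 COX-2 null and heterozygous hippocampus arrays lay between -0.545 and -0.239. The same 3 COX-1 wild-type arrays are the control of the COX-1 null comparison, in which Stmn3 differed by 0.178, Dync1i2 by 0.163 and Myh9 by -0.273. For Tpm2, whose value here is the mean of a probe in the first and one in the second part of the table, the means were 0.633 ± 0.0769 in COX-2 and 0.938 ± 0.0469 in COX-1 wild-type hippocampus (SD, n = 3 each). Its probe in the second part had means of -0.0418 in COX-2 and 0.405 in COX-1 wild-type hippocampus. In COX-2 wild type the gene mean of Tpm2 was thus above 0 only through its probe in the first part. Leaving out 1 of the 6 arrays gave 0 to 3 calls. In cortex 0 of 29 genes were called between the wild-type groups, against 64 of 3770 features (1.7%), with 8 of the genes and 649 features (17.2%) at an unadjusted p under 0.05. Line, colony and the handling of the 2 sets of mice cannot be told apart in these comparisons.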

How the data were processed

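The 30 arrays hold 16896 probes each, hybridised with labelled cDNA of 5 µg total RNA. The authors converted phosphoimager signals to Z scores, the natural log intensity minus the mean of its array divided by the SD, and deposited these scores, here with mean 0 and SD 1 within each of the 2 parts of an array (its first and second 8448 probes). Files give no depth, so precision is limited by the 3 arrays per group. Probes with 1 symbol were averaged per gene, giving 14384 features with the unnamed probes. First-part values of COX-1 cortex were left out. limma 3.58.1 (R 4.3.3) fitted group means on the 9 COX-2 cortex arrays, the 15 cortex arrays (second part), the 15 hippocampus arrays, and for regions on 24 arrays (COX-2) or 30 arrays (COX-1, second part), with Benjamini-Hochberg adjustment over features with mean Z above 0. The z-ratio rule used the study's Z test on the same gene means, with P under 0.05, and divided differences by the SD of all features' differences, where the study's written formula has the SD of an array. An exact permutation test of 3 arrays against 3 cannot go below 0.1.

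Genes named are those called in a genotype comparison, up to 10 called in either direction between regions, the 3 highest and 3 lowest z ratios per genotype comparison, the 10 with the highest mean Z, and well-known cytoskeletal genes (Actb, Actg1, Cfl1, Tubb5, Stmn1, Kif5b, Dynll1, Dctn1, Macf1, Marcks, Tpm1, Acta2, and Tuba1a, Kif5a and Myh11, which are not among the 87). Members of the group and all lists were chosen with earlier results of these data known. Scripts were tested on simulated data. Alternatives were single probes, quantile normalization, other limits on mean Z, a running median over rows, pooled wild-type arrays, an intensity trend, a replicate block and leaving out each array. Promoters came from RefSeq (GRCm38.p6).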

Additional observations from a re-analysis of the deposited data

Results flagged for a closer look

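The effect of COX-1 loss differed between the regions, by limma's test of the difference, for 2 of 29 genes, against 2.99% of 3783 features. This contrast and the next were added after the data were seen. For Dync1i2 the COX-1 null minus wild-type difference was higher in hippocampus than in cortex by 0.235094 in Z (SE 0.0599, adjusted p = 0.0366). It was at 0.841, 0.843 and 0.720 in null, against 0.578, 0.667 and 0.671 in wild-type hippocampus, and at 0.681, 0.657 and 0.702 in null, against 0.795, 0.814 and 0.648 in wild-type cortex. The cortex arrays overlapped. For Kif9 the same difference was -0.189613 (SE 0.0516, adjusted p = 0.0450), with -0.122, -0.0950 and -0.124 in null, against 0.0677, 0.0165 and -0.0966 in wild-type hippocampus, and 0.149, 0.166 and 0.175 in null, against 0.0934, 0.116 and 0.0410 in wild-type cortex. The mean of Kif9 lay below 0 in both hippocampus groups, so it passed the limit on mean Z only through cortex. Its values are a description, while Dync1i2 had a mean above 0 in every group. On leaving out each of the 12 arrays in turn, Dync1i2 kept its call 5 times and Kif9 1 time.

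The regional difference of wild-type mice differed between the lines for 2 of 32 genes, against 4.95% of 3777 features. For Actg1 the hippocampus minus cortex difference in COX-2 minus that in COX-1 wild-type mice was -0.160525 (SE 0.0399, adjusted p = 0.0253). It was at 1.23, 1.23 and 1.19 in COX-2 wild-type hippocampus, against 1.18, 1.15 and 1.18 in COX-2 wild-type cortex, and at 1.26, 1.28 and 1.29 in COX-1 wild-type hippocampus, against 1.08, 1.07 and 1.06 in COX-1 wild-type cortex. For Marcks it was 0.169666 (SE 0.0468, adjusted p = 0.0376), with 0.792, 0.819 and 0.792 in COX-2 wild-type hippocampus, against 0.792, 0.760 and 0.797 in cortex, and 0.680, 0.679 and 0.679 in COX-1 wild-type hippocampus, against 0.809, 0.887 and 0.796 in cortex. Without 1 of the 12 arrays Actg1 kept its call 8 times and Marcks 3 times. Line and colony cannot be told apart in the second contrast.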

How the results depend on the processing

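Of 1469 values of 121 gene results under alternatives, 1468 kept their direction and 1222 their side of the threshold. The exception was Kif7 in COX-2 null hippocampus, whose z ratio was -0.247 with a running median over 100 rows on either side (0.920 as reported). The causes of the changes below were not tested. The counts below stand without the number of genes tested and the share of all features called under the same setting. Both can change with the setting, so the counts are not read as more or fewer effects on these genes.

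By the z-ratio rule, single probes gave 3 calls in COX-1 null cortex, 1 in COX-2 heterozygous cortex, 5 in COX-1 null and 5 in COX-2 heterozygous hippocampus. With no limit on mean Z there were 2 calls in COX-1 null cortex, 3 in COX-2 null cortex, and 8, 5 and 4 in COX-1 null, COX-2 null and COX-2 heterozygous hippocampus. With mean Z above 0.5 the count was 0 in COX-1 null cortex and in all 3 mutant hippocampus comparisons. Quantile normalization gave 0 in COX-1 null cortex, and the running median gave 0 there and in COX-2 null hippocampus. Pooled wild-type arrays gave 1 call in each of COX-2 null and COX-2 heterozygous cortex, 1 in COX-1 null hippocampus and 0 in COX-2 null hippocampus. With the SD of an array as divisor, an alternative added after the data were seen, the count was 0 in COX-1 null cortex and in all 3 mutant hippocampus comparisons.

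By limma, single probes gave 1 call in COX-1 null and 2 in COX-2 heterozygous hippocampus, 2 between regions in COX-2 null and 8 in heterozygous mice, and 1 for the line contrast of the regional difference. With no limit on mean Z there were 3 calls in COX-1 null hippocampus, 2 between the wild-type groups in cortex and 10 in hippocampus, 14 between regions in COX-1 null and 18 in COX-1 wild-type mice, 4 for the COX-1 effect between regions and 6 for the line contrast. With mean Z above 0.5 there were 0 in COX-2 heterozygous hippocampus, 1 between the wild-type groups in hippocampus, and between regions 4 in COX-2 wild-type, 3 in COX-1 null, 3 in COX-1 wild-type mice and 6 over the 3 COX-2 genotypes, with 1 for the COX-1 effect between regions, which quantile normalization also left at 1. An intensity trend gave 1 call in COX-1 null hippocampus and 1 between regions in COX-2 null mice.

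Deviations of same-numbered replicates correlated weakly, with r of -0.0718 to 0.233. Every r was over 0.1 in 1 of 28 pairs of groups, so the numbers were not taken as pairs. Most r were positive, and whether a small shared part lies behind them was not tested. With a replicate block limma gave 2 calls in COX-2 heterozygous hippocampus and 1 between regions in COX-2 null mice.

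Leaving out 1 array gave, by the z-ratio rule, 0 to 1 calls in COX-1 null cortex, 0 to 1 in COX-2 null cortex, 0 to 2 in COX-2 heterozygous cortex, and 2 to 6, 1 to 1 and 2 to 4 in COX-1 null, COX-2 null and COX-2 heterozygous hippocampus. By limma it gave 0 in COX-2 heterozygous hippocampus, 0 to 3 between the wild-type groups in hippocampus, and between regions 0 to 5 in COX-2 null, 1 to 4 in heterozygous, 3 to 6 in COX-2 wild-type, 4 to 7 in COX-1 null and 6 to 9 in COX-1 wild-type mice and 7 to 10 over the 3 COX-2 genotypes. It gave 0 to 2 for the COX-1 effect and 0 to 2 for the COX-2 effect between regions, and 0 to 3 for the line contrast. Genes with mean Z near 0 lie close to background, and their calls rest on weak signal.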
